A study of Mus musculus with 10 samples.

Results

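The genes described here are those of glucose uptake, glycolysis, glycogen metabolism and the pathways that branch from them, in the gastrocnemius muscle of mdx and normal mice. They were chosen by name: of 42 listed genes, 36 had a probe set whose platform annotation names that gene alone, 52 probe sets in all, out of 8252 genes and 12488 probe sets in the whole series. Of these 36 genes, 12 are isoforms typical of skeletal muscle, 11 are the isoforms of other cells at the same steps, and 13 are enzymes with a single form or a form used in most tissues. The 6 listed genes with no such probe set were Gpi1, Pfkfb1, Eno1, Slc16a3, Pygl and G6pdx.

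The study hybridised RNA from the gastrocnemius, a mixed calf muscle rich in fast fibres, to Affymetrix arrays, 1 array per sample. The 5 control arrays came from normal males aged 16 weeks, and the 5 mdx arrays from mdx males of the same age; the labels name neither a strain for the controls nor any treatment. The mdx mouse carries an inherited mutation in the dystrophin gene, present in all its cells, and the series title describes its muscle as regenerated. Whether each array stands for its own mouse is not stated, and the p-values then cover only the variation among arrays, which may be technical.

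Muscle draws glucose from blood through transporters, traps it as glucose 6-phosphate with hexokinase, and either stores it as glycogen or breaks it down to pyruvate and lactate. Fast fibres hold large amounts of the glycolytic enzymes, and at many steps they use an isoform encoded by its own gene, while immune cells, fibroblasts, nerve and muscle precursors commonly use another gene for the same reaction. Regenerating fibres pass through a stage in which forms from early development are made before those of mature muscle.

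Most muscle isoforms were lower in mdx muscle with the arrays scaled as deposited, and this depended on the scaling. The other scalings were quantile normalization, scaling to the hybridization controls and centring on the fast sarcomere genes. The hybridization controls are bacterial transcripts added at fixed amounts to the hybridization mix. The list called fast sarcomere genes holds mostly contractile genes of fast fibres, and also Casq1, Atp2a1, Pvalb and Ckm, which are not contractile genes. Of 12 muscle isoforms tested, 11 fell, 0 rose, and Fbp2 did not pass the test, with a median log2 change of -0.60; that median was -0.26 after quantile normalization, 0.03 scaled to the hybridization controls and -0.10 centred on the fast sarcomere genes. Of 9 isoforms of other cells tested, Hk1, Pfkp and Pgam1 rose, Ldhb fell and 5 did not pass, with a median of 0.10. Of 11 single-form or broadly used enzymes, Tpi1, Pkm, Gyg, Gbe1, Pgm1 and Ugp2 fell and 5 did not pass, with a median of -0.30. Over all 32 tested genes, 18 fell, 3 rose and 11 did not pass.

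Across the array, 33.6% of the 7612 probe sets tested passed the same threshold, an adjusted p under 0.05 in limma. The share that was lower in mdx was 17.8%, against 91.7% of the muscle isoforms and 56.2% of all tested genes of the group. The share that was higher was 15.8%, against 33.3%, or 3 of 9, of the isoforms of other cells; Pgam1, 1 of these 3, was tested mainly through its mdx arrays, so nothing is read from that share. The median log2 change of all probe sets tested was -0.03.

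**Figure D1:**
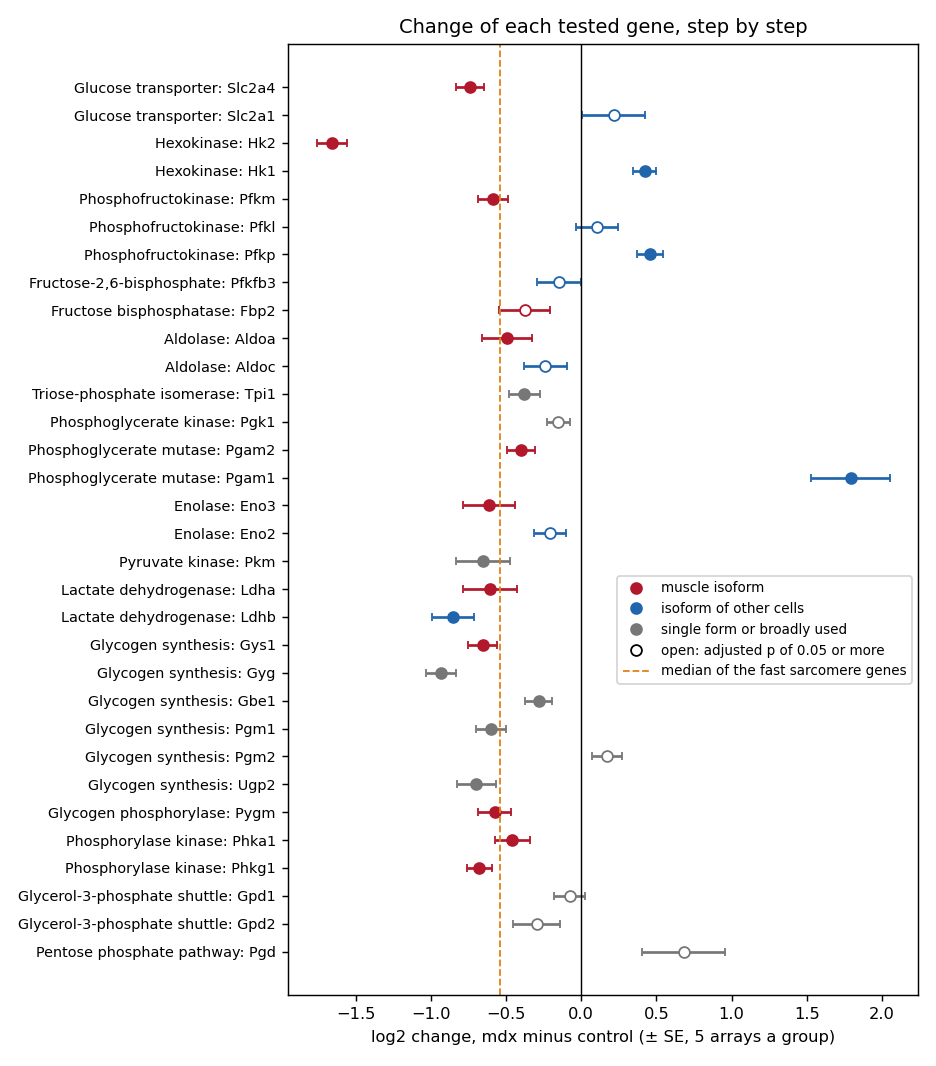
Log2 change of the 32 tested genes, mdx minus control on the deposited scaling, ordered by step; points are the fitted change, bars the SE over 5 arrays a group, and filled points passed an adjusted p of 0.05. Red muscle isoforms lie at -0.38 or lower, with Hk2 at -1.66 farthest to the left, while blue Pgam1, at 1.79, lies farthest to the right. The dashed line is the median of the fast sarcomere genes, -0.54; scaled to the hybridization controls, 8 of the 12 muscle isoforms lie above 0.

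Intensities are in the linear units of the deposited table, and those of different probe sets cannot be set against each other as levels. Changes are on the scale log2(intensity + 372.4), where 372.4 is a noise level taken from the values below 0, so the change of a dim gene is understated. A probe set was tested where it exceeded 134.2 on at least 5 of the 10 arrays. Of the 32 tested genes, 26 did so on all 10 arrays. Slc2a1, Pgam1, Pgm2 and Pgd exceeded it on fewer than 3 control arrays and so were tested mainly through their mdx arrays. Slc2a3, the transporter GLUT3 of neurons and leukocytes, read -53.7 to 205 in control and -17.0 to 232 in mdx over its 2 probe sets, and was too dim to be tested, as were Slc16a1 and Pygb; Gapdh had only the array's control probe sets.

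Trimmed mean intensity, with 2% of values left out at each end, was 800.7 to 800.9 on 9 arrays and 723.1 on mdx array 1. Log2 values correlated across tested probe sets at 0.961 to 0.977 among control arrays, 0.952 to 0.977 among mdx arrays and 0.885 to 0.910 between groups. Sarcomere genes of the labelled tissue were bright, with Tnnt3 at 56226 ± 10780.4 (SD, n = 5) in control and 38692 ± 6935 (SD, n = 5) in mdx. Of 14 fast sarcomere genes 9 fell and Tpm1 rose as deposited, and their summed intensity was 297128 to 513340 in control and 232384 to 368006 in mdx. The marker counts that follow stand beside 15.8% of all probe sets higher and 17.8% lower. Of 14 macrophage markers tested 13 rose, with sums of 4973 to 9376 and 71805 to 96562. Cd68, Lgals3, Tyrobp, Adgre1, Fcgr3, Cd53 and Itgam were below the noise level in control. Lgals3 and Cd53 exceeded the filter on 0 control arrays, and Adgre1 and Fcgr3 on 1 each, so these were tested mainly through their mdx arrays. Immature muscle genes rose in 8 of 10, with sums of 15836 to 23192 and 44333 to 54453, and fibroblast markers rose in 7 of 9 with 2 lower, with sums of 43578 to 54275 and 74287 to 87136. Chrng, 1 of the immature muscle genes that rose, exceeded the filter on 1 control array and was likewise tested mainly through its mdx arrays. Endothelial markers had 1 higher and 2 lower of 9, smooth muscle 1 higher and 2 lower of 6, adipocyte 2 higher of 4, and nerve and Schwann cell 1 lower of 3. The part of these lists in the results for the glucose genes was not tested, and in whole muscle fewer cells of a type and less RNA per cell cannot be told apart.

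The muscle isoforms for glucose entry and capture, Slc2a4 and Hk2, were both lower in intensity in mdx with the arrays as deposited. Slc2a4, the gene of the insulin-responsive transporter GLUT4, read 8807, 8485, 7925, 8703 and 8292 on the control arrays and 3796, 5761, 4869, 4999 and 5296 on the mdx arrays. Every mdx array lay below every control array. Slc2a4 fell by 0.74 ± 0.10 on the log2 scale (SE, limma adjusted p = 7.12e-05), to 58.6% of the control mean. It stayed negative, at -0.14 and -0.24, without passing the test, when the arrays were scaled to the hybridization controls or centred on the fast sarcomere genes. Slc2a1, the gene of the basal transporter GLUT1, read -355, 283, -449, -154 and 271 on the control arrays and 175, 232, 192, 293 and -115 on the mdx arrays. All 10 values were below the noise level and the groups overlapped, with a log2 change of 0.22 (95% interval -0.24 to 0.67, limma adjusted p = 0.465).

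Hk2, the gene of the muscle hexokinase that insulin and contraction induce, read 6858, 9604, 7432, 7446 and 8418 on the control arrays and 2364, 1994, 2642, 2183 and 2107 on the mdx arrays. The groups were far apart, the highest mdx array lying below the lowest control array. Hk2 fell by 1.66 ± 0.10 on the log2 scale (SE, limma adjusted p = 1.11e-07), to 28.4% of the control mean. Its means were 7951 ± 1080.4 (SD, n = 5) in control and 2258 ± 254 (SD, n = 5) in mdx. It kept its call under all 22 alternative settings, with changes between -1.74 and -1.08. Hk1, the gene of the hexokinase of brain, red cells and most tissues, read 8528, 8083, 8221, 9068 and 9643 on the control arrays and 10545, 11815, 12472, 11721 and 12409 on the mdx arrays. All mdx arrays lay above all control arrays. Hk1 rose by 0.42 ± 0.07 on the log2 scale (SE, limma adjusted p = 0.000782), to 135% of the control mean, and passed under the same 22 settings with changes between 0.40 and 1.04.

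Slow sarcomere genes mark the oxidative fibres in which hexokinase II is known to be abundant. On the deposited scaling 7 of 10 fell, beside 17.8% of all probe sets, and Tnni1 and Casq2 rose, beside 15.8%. The summed intensity of the 10 genes was 86580 to 109521 in control and 40558 to 47623 in mdx. Their median log2 change on that scaling was -0.99, beside -1.66 for Hk2. The part of the slow fibres in the Hk2 result was not tested.

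The 250 bases before the transcription start of Hk2 are shown with those of both phosphoglycerate mutase genes, because these are the genes with the largest fall and the largest rise and the muscle partner of the latter. The sequences are RefSeq's in build GRCm38.p6, 5′ to 3′ on the gene's strand, at chr6:82774455-82774704 (minus strand) for Hk2, chr11:5803797-5804046 (minus strand) for Pgam2 and chr19:41911621-41911870 (plus strand) for Pgam1. Capitals mark, on either strand, ACGTG and GCGTG (the cores bound by HIF-1), CAGCTG (an E-box form bound by MyoD and myogenin) and the MEF2 motif; CACGTG, which overlaps ACGTG, was searched too.
Hk2: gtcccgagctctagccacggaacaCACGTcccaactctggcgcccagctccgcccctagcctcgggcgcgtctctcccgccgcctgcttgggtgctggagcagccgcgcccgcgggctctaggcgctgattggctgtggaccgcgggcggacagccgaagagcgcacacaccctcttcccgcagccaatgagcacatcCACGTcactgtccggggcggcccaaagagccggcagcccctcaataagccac
Pgam2: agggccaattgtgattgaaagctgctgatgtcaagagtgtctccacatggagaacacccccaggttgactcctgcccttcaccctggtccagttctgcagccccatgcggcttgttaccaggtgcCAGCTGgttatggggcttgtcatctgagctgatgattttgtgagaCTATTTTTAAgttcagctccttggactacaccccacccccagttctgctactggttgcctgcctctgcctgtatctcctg
Pgam1: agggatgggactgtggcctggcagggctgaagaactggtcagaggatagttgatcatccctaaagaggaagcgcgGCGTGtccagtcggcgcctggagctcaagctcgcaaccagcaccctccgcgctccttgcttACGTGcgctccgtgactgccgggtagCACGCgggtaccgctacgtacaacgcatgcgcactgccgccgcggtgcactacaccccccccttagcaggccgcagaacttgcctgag
The Hk2 window held ACGTG at 226 and 52 bases before the start. The Pgam2 window held CAGCTG at 125 bases and a MEF2 match at 80 bases, and the Pgam1 window held ACGTG at 114 bases and GCGTG at 175 and 88 bases before the start.

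Across 39 listed genes that have such windows, CAGCTG was found for 6 of 12 muscle isoforms (Fbp2, Gys1, Pfkfb1, Pgam2, Phka1 and Pygm) and for 0 of 12 isoforms of other cells, counting a gene where any of its windows held the motif, against 14.7% of all 27025 genes counted the same way. GCGTG was found for 6 of 12 muscle isoforms and 11 of 12 isoforms of other cells, against 30.9% of all genes. A MEF2 match was found for Pfkfb1 and Pgam2 and for 0 isoforms of other cells, against 3.4% of all genes. ACGTG was found for 6 of 12 muscle isoforms, 5 of 12 isoforms of other cells and 8 of 15 single-form enzymes, against 18.5% of all genes, and CACGTG for 3, 1 and 1 of these, against 6.9%. The 12 muscle isoforms had 21 windows and the 12 isoforms of other cells 17, beside 32851 for all 27025 genes, so a count by gene favours them. By window, CAGCTG was in 28.6% and 0% of these, beside 13.0% of all, and GCGTG in 33.3% and 82.35%, beside 28.2%. The MEF2 motif was in 9.52% and 0% of windows, beside 2.92%, and ACGTG in 38.1% and 35.3%, beside 16.6%. A match is a run of letters in the window and not a bound site.

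**Figure D2:**
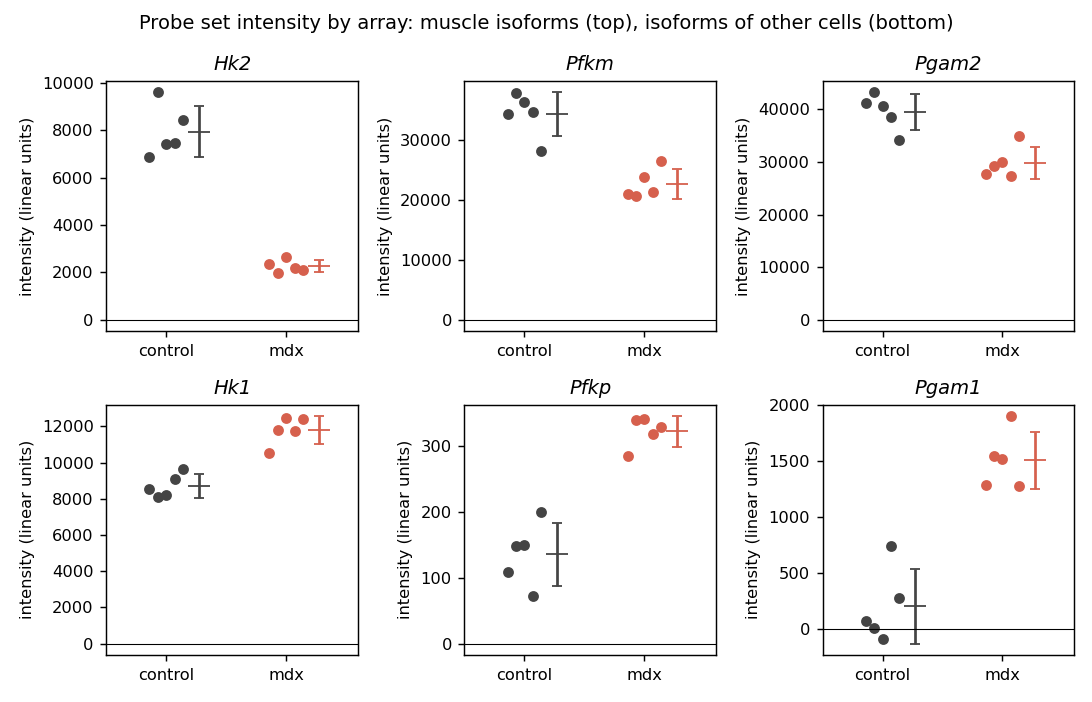
Probe set intensity, in linear units, on each of the 5 control and 5 mdx arrays for muscle isoforms (top row: Hk2, Pfkm, Pgam2) and isoforms of other cells at the same steps (bottom row: Hk1, Pfkp, Pgam1), with mean and SD beside the points. The mdx arrays of Hk2 read 1994 to 2642, below all control arrays, and those of Pgam1 read 1275 to 1904, above all control arrays. Pfkm and Pgam2 are lower in mdx on the deposited scaling shown, and turn to 0.04 and 0.23 on the log2 scale when scaled to the hybridization controls.

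Phosphofructokinase, the main control point of glycolysis, differed by subunit. Pfkm, which encodes the muscle subunit, read 34389, 37873, 36429, 34785 and 28292 on the control arrays and 21096, 20758, 23928, 21317 and 26509 on the mdx arrays. Groups did not overlap. The mdx mean was 66.1% of the control mean. Pfkm fell by 0.59 ± 0.10 on the log2 scale (SE, limma adjusted p = 0.000542), with the sign turned to 0.04 scaled to the hybridization controls. Pfkl, the liver-type subunit, read 737, 508, 823, 1035 and 627 on the control arrays and 735, 728, 823, 672 and 1175 on the mdx arrays. These values overlapped, with a log2 change of 0.10 (95% interval -0.20 to 0.41, limma adjusted p = 0.615).

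Pfkp, the platelet-type subunit that is also made in leukocytes and fibroblasts, read 109, 147, 149, 71.8 and 199 on the control arrays and 284, 339, 341, 317 and 329 on the mdx arrays. Every mdx array was above every control array, but all 10 values lay below the noise level, so no fold is given. Pfkp rose by 0.46 ± 0.09 on the log2 scale (SE, limma adjusted p = 0.00152). Its other probe set gave 0.37 (limma adjusted p = 0.00572), also with all 10 values below the noise level. That probe set exceeded the filter on 1 control array and 5 mdx arrays. It was thus tested mainly through its mdx arrays, and nothing is read from it. Pfkfb3, the inducible enzyme that makes the activator fructose 2,6-bisphosphate, gave a log2 change of -0.15 (95% interval -0.46 to 0.17, limma adjusted p = 0.481); Fbp2, the muscle fructose bisphosphatase that works in the reverse direction, gave a log2 change of -0.38 (95% interval -0.75 to -0.01, limma adjusted p = 0.113). Without control array 3, Fbp2 passed at -0.49 (limma adjusted p = 0.0369).

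At the middle and lower steps of glycolysis the bright muscle genes were lower in intensity in mdx, on the deposited scaling. Aldoa, the muscle aldolase, also made in many cells, read 27025, 34533, 36042, 28070.2 and 19724 on the control arrays and 19022, 18058, 20494, 17021 and 27563 on the mdx arrays. The groups overlapped at control array 5 and mdx array 5. Aldoa fell by 0.49 ± 0.17 on the log2 scale (SE, limma adjusted p = 0.0384), with the sign turned to 0.14 scaled to the hybridization controls and 0.0085 centred on the fast sarcomere genes. Its other probe set fell by 0.55 (limma adjusted p = 0.00135). The representative probe set lost its call without any of the 8 arrays numbered 1 to 4, at changes of -0.51 to -0.41 (limma adjusted p of 0.0545 to 0.0911). Aldoc, the aldolase known from brain, read 165, 139, 274, 269 and 267 on the control arrays and 67.4, -62.8, 236, 216 and 171 on the mdx arrays, all below the noise level, with a log2 change of -0.24 (95% interval -0.55 to 0.07, limma adjusted p = 0.225).

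Tpi1, triose-phosphate isomerase, read 41842, 49180.1, 43739, 42038 and 35333 on the control arrays and 29405, 32144, 32925, 29430.1 and 38613 on the mdx arrays. Control array 5 was the lowest control and mdx array 5 the highest mdx array. Tpi1 fell by 0.38 ± 0.10 on the log2 scale (SE, limma adjusted p = 0.0126), with the sign turned to 0.16 after quantile normalization, 0.25 scaled to the hybridization controls and 0.12 centred on the fast sarcomere genes. Pgk1, phosphoglycerate kinase, gave a log2 change of -0.15 (95% interval -0.32 to 0.02, limma adjusted p = 0.163) and ranged from 17513 to 21093 in control and 15996 to 19061 in mdx. Gapdh, which carries out the step between them, had 6 control probe sets and no other. The 3 whose names end in _st, which are designed to the opposite strand, were set aside, and the other 3 cover its 5′, middle and 3′ parts. These gave log2 changes of -0.59, -0.61 and -0.59, or 0.05, 0.02 and 0.04 scaled to the hybridization controls, with exact permutation p-values of 0.0397, 0.0317 and 0.103 (two-sided) and 0.0595, 0.0595 and 0.103 after Benjamini-Hochberg adjustment over the 3. The ratio of its 3′ to its 5′ signal, a sign of RNA integrity, was 0.735 in control and 0.732 in mdx (exact permutation p = 0.921).

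At phosphoglycerate mutase the change was negative for the muscle gene and positive for the other gene on the deposited scaling. Pgam2, the muscle form, read 41126, 43215, 40586, 38462 and 34122 on the control arrays and 27627, 29175, 30079, 27413 and 34958 on the mdx arrays. Groups overlapped at the arrays numbered 5. Pgam2 fell by 0.40 ± 0.09 on the log2 scale (SE, limma adjusted p = 0.0043), with the sign turned to 0.12 after quantile normalization, 0.23 scaled to the hybridization controls and 0.10 centred on the fast sarcomere genes. Pgam1, the form of brain and most tissues, read 74.4, 4.99, -94.1, 745 and 277 on the control arrays and 1292, 1546, 1519, 1904 and 1275 on the mdx arrays. All mdx arrays were above the highest control array, and 4 control arrays were below the noise level. Pgam1 rose by 1.79 ± 0.26 on the log2 scale (SE, limma adjusted p = 0.000195) and passed under all 22 alternative settings, with changes between 1.27 and 2.48. The probe set exceeded the filter on 2 control arrays and 5 mdx arrays. It was thus tested mainly through its mdx arrays, and nothing is read from its call or from its passing under those settings. No fold is given because the control mean, 201, is below the noise level. Pgam1 has near-identical copies in the genome, whose transcripts the probe set may also read.

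Eno3, the muscle enolase, read 32804, 42889, 47169, 34249.6 and 24198 on the control arrays and 21809, 20669.9, 24286, 19029.8 and 30826 on the mdx arrays. The group ranges overlapped. Eno3 fell by 0.61 ± 0.17 on the log2 scale (SE, limma adjusted p = 0.0165), with the sign turned to 0.02 scaled to the hybridization controls. Eno2, the enolase of neurons, read 616, 551, 721, 379 and 473 on the control arrays and 432, 451, 446, 414 and 349 on the mdx arrays. The spread of the controls covered most mdx arrays, with a log2 change of -0.21 (95% interval -0.44 to 0.02, limma adjusted p = 0.161).

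Pkm, pyruvate kinase M, whose transcript is spliced as M1 in adult muscle and M2 in dividing cells, read 29355, 38017, 39367, 32257 and 21572 on the control arrays and 19607, 16832, 21025, 15882 and 27925 on the mdx arrays. Control array 5 read below mdx array 5, so the groups overlapped. Pkm fell by 0.65 ± 0.18 on the log2 scale (SE, limma adjusted p = 0.013), and was -0.02 scaled to the hybridization controls. Its other probe set fell by 0.41 (limma adjusted p = 0.00233), and the annotation used here does not say which spliced form either reads.

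The genes of both lactate dehydrogenase subunits were lower in intensity in mdx with the arrays as deposited. Ldha, the subunit that favours lactate production, read 42056, 49519, 53649.6, 44263 and 29639 on the control arrays and 28063, 23739, 29261, 22283 and 40268 on the mdx arrays. These groups overlapped. Ldha fell by 0.61 ± 0.18 on the log2 scale (SE, limma adjusted p = 0.0188), with the sign turned to 0.03 scaled to the hybridization controls. Ldhb, the subunit of heart and oxidative fibres, read 7745, 5055, 6729.8, 5792 and 4689.6 on the control arrays and 2535, 3852, 3227, 2639.7 and 3463 on the mdx arrays, with no overlap. Ldhb fell by 0.85 ± 0.14 on the log2 scale (SE, limma adjusted p = 0.000522), the only isoform of other cells that did so, and was -0.26 without passing scaled to the hybridization controls. Slow sarcomere genes fell in 7 of 10 on the same arrays as deposited, beside 17.8% of all probe sets. Their part in the Ldhb result was not tested. Of the lactate transporters, Slc16a1 was dim, at 62.5 to 170 in control and -5.6 to 75.2 in mdx.

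Of 9 tested genes of glycogen synthesis and breakdown, 8 fell with the arrays as deposited, or 88.9% beside 17.8% of all probe sets, and 7 after quantile normalization, where Pygm did not pass and 17.7% of all probe sets fell; scaled to the hybridization controls 0 of the 8 tested there passed, Pgm2 being too dim, beside 1.66% of all probe sets lower and 46.7% higher, and Gbe1, Pgm1, Pygm and Phka1 changed sign. Gyg, the glycogenin that primes each glycogen particle, read 10958, 8881, 11078, 10369 and 10579 on the control arrays and 4924, 4678, 5156, 6769.7 and 4884 on the mdx arrays. No mdx array reached the control range. Gyg fell by 0.93 ± 0.10 on the log2 scale (SE, limma adjusted p = 1.69e-05), to 50.9% of the control mean, and its other probe set fell by 0.60 (limma adjusted p = 0.00264). Gys1, the muscle glycogen synthase, read 14665, 13584, 14802, 14358 and 12551 on the control arrays and 6961, 10027, 8441, 9005 and 9534 on the mdx arrays. All mdx arrays were lower than all control arrays. Gys1 fell by 0.66 ± 0.10 on the log2 scale (SE, limma adjusted p = 0.000201), to 62.8% of the control mean, and was -0.04 scaled to the hybridization controls.

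Ugp2, which makes the UDP-glucose used by glycogen synthase, read 4458, 5005, 4599.6, 3922 and 5923 on the control arrays and 2819, 3431, 3149, 2081 and 2603 on the mdx arrays. Ugp2 fell by 0.70 ± 0.13 on the log2 scale (SE, limma adjusted p = 0.00106), with no overlap of the groups. Pgm1, a phosphoglucomutase that links glucose 1-phosphate and glucose 6-phosphate, read 30552, 34847, 35528, 31327 and 25914 on the control arrays and 19395, 19663, 20687, 19485 and 24120.2 on the mdx arrays. The mdx arrays again all lay below the control arrays. Pgm1 fell by 0.60 ± 0.10 on the log2 scale (SE, limma adjusted p = 0.000488), with the sign turned to 0.03 scaled to the hybridization controls. Gbe1, the branching enzyme, read 329, 284, 400.1, 462 and 422 on the control arrays and 216, 261, 271, 237 and 238 on the mdx arrays. Its groups did not overlap, but all mdx arrays and 2 control arrays were below the noise level. Gbe1 fell by 0.28 ± 0.09 on the log2 scale (SE, limma adjusted p = 0.0285), with the sign turned to 0.0088 scaled to the hybridization controls and 0.22 centred on the fast sarcomere genes, and did not pass without control array 3, 4 or 5 or mdx array 1 or 4, at -0.28 to -0.24 (limma adjusted p of 0.0557 to 0.0687). Pgm2, another phosphoglucomutase, gave a log2 change of 0.17 (95% interval -0.04 to 0.39, limma adjusted p = 0.209), with all 10 arrays below the noise level.

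Breakdown of glycogen rests on a phosphorylase and the kinase that activates it. Pygm, the muscle glycogen phosphorylase that is deficient in McArdle disease, read 40379, 48776, 45995, 42077 and 32852 on the control arrays and 25209, 26203, 28692, 26735 and 32857 on the mdx arrays. The highest mdx array, number 5, was above the lowest control array, also number 5. Pygm fell by 0.58 ± 0.11 on the log2 scale (SE, limma adjusted p = 0.00161), with the sign turned to 0.06 scaled to the hybridization controls. Phka1, the muscle alpha subunit of phosphorylase kinase, read 4470.4, 4634, 3025, 3928 and 4793 on the control arrays and 2419, 3218, 2827, 3092 and 2989.5 on the mdx arrays, with overlap. Phka1 fell by 0.46 ± 0.12 on the log2 scale (SE, limma adjusted p = 0.00882), with the sign turned to 0.12 scaled to the hybridization controls and 0.04 centred on the fast sarcomere genes. Phkg1, the catalytic subunit of the same kinase in muscle, read 7693, 7325, 6999, 8508 and 7509 on the control arrays and 4275, 4242, 5361, 4981 and 4288 on the mdx arrays. The groups were separate. Phkg1 fell by 0.68 ± 0.08 on the log2 scale (SE, limma adjusted p = 5.13e-05), to 60.9% of the control mean, and was -0.08 scaled to the hybridization controls. Pygb, the brain phosphorylase, was dim on all arrays, from -29.7 to 95.2 in control and 29.7 to 207 in mdx.

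**Figure D3:**
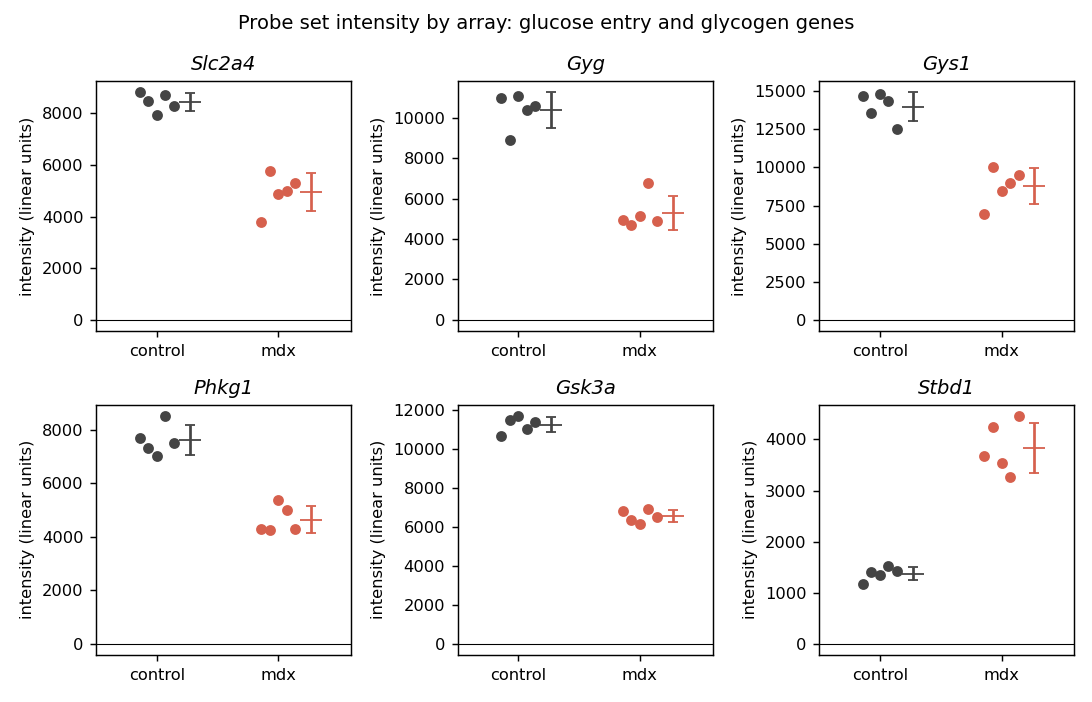
Probe set intensity, in linear units, on the 5 control and 5 mdx arrays for Slc2a4, Gyg, Gys1, Phkg1, Gsk3a and Stbd1, with mean and SD beside the points. In the first 5 panels every mdx array lies below every control array on the deposited scaling, and for Stbd1, which binds glycogen, every mdx array lies above; scaled to the hybridization controls, the 5 lower genes keep a negative change but do not pass the test.

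In the branches from glycolysis no gene passed by its representative probe set, the brightest one tested. Gpd1, the cytosolic glycerol-3-phosphate dehydrogenase of the shuttle that moves reducing power into mitochondria, gave a log2 change of -0.07 (95% interval -0.30 to 0.15, limma adjusted p = 0.617), with the sign turned to 0.05 after quantile normalization, 0.53 scaled to the hybridization controls and 0.42 centred on the fast sarcomere genes. Its other probe set fell by 0.44 (limma adjusted p = 0.0266), so the 2 probe sets disagreed in call. With the mean over its tested probe sets in place of the brightest, Gpd1 passed at -0.26 (limma adjusted p = 0.0437). Gpd2, the mitochondrial partner, gave a log2 change of -0.30 (95% interval -0.64 to 0.04, limma adjusted p = 0.172). Pgd, the 6-phosphogluconate dehydrogenase of the pentose phosphate pathway, read -421, 342, 346, -408 and -410.3 on the control arrays and 243, 689, 86.5, 556 and 640.1 on the mdx arrays. It had a log2 change of 0.68 (95% interval 0.08 to 1.28, limma adjusted p = 0.0764), and passed without control array 2 or 3 or mdx array 3, at 0.82, 0.82 and 0.87 (limma adjusted p of 0.043, 0.0414 and 0.0222). Those were its highest control arrays and its lowest mdx array. Pgd exceeded the filter on 2 control and 4 mdx arrays, with all 5 control arrays below the noise level, so nothing is read from these passes. The other probe set of Pgd gave -0.03 (limma adjusted p = 0.857).

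The muscle isoform was set against the isoform of other cells on the same array, a difference that a single scaling factor per array moves only through the added noise level. Of 13 such pairs, 8 could be computed, and the difference of log2 values was compared between groups by a two-sided exact permutation test, which cannot go below 0.00794 with 5 arrays a group. Relative to the control mean, the Hk2 minus Hk1 difference lay between -0.17 and 0.37 on control arrays and between -2.23 and -1.86 on mdx arrays. Its mean change was -2.08 (exact p = 0.00794, 0.0159 after Benjamini-Hochberg adjustment over the 8 pairs). The added noise level moved it little, from -2.17 to -1.94 over the pseudocounts tried. The Pfkm minus Pfkl difference changed by -0.69, with no overlap between groups (exact p = 0.00794, adjusted 0.0159), and from -0.72 to -0.66 over the pseudocounts; it was -0.19 and did not pass after quantile normalization.

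In 4 of the pairs the isoform of other cells was at or below the noise level: Slc2a1, Pfkp and Aldoc on all 10 arrays, and Pgam1 on 4 of the 5 control arrays. The size of these differences depends on the added noise level, so they are given as values from which nothing is read. Pgam2 against Pgam1 changed by -2.19, with a range of -2.88 to -1.67 over the pseudocounts, and Pfkm against Pfkp by -1.04, with a range of -1.32 to -0.86. Slc2a4 against Slc2a1 changed by -0.96 with overlapping groups (exact p = 0.0238, adjusted 0.0381), with a range of -1.19 to -0.82. Its call ended with either smaller pseudocount, after quantile normalization (-0.79), scaled to the hybridization controls (-0.51), and without control array 1, 3 or 4 or mdx array 1, 2, 3 or 4, at -0.97 to -0.86. Aldoa against Aldoc changed by -0.25 with overlapping groups (exact p = 0.317), and turned to 0.19 after quantile normalization and 0.20 scaled to the hybridization controls.

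At enolase and lactate dehydrogenase the test of the pair did not pass. Eno3 against Eno2 changed by -0.40 (exact p = 0.0714, adjusted 0.0952), turned to 0.14 after quantile normalization, and passed at -0.54 (adjusted exact p = 0.0423) without mdx array 5. Ldha against Ldhb changed by 0.24 (exact p = 0.27) with overlapping groups, and passed at 0.70 (adjusted exact p = 0.0159) after quantile normalization.

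**Figure D4:**
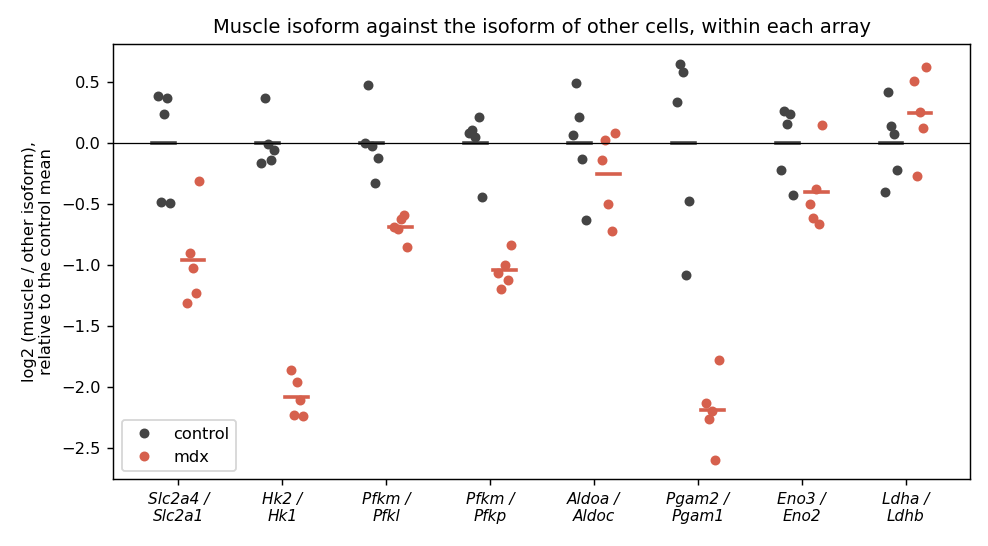
Log2 intensity of the muscle isoform minus that of the isoform of other cells on each array, relative to the control mean, for 8 pairs; grey points are the 5 control and red points the 5 mdx arrays, and bars are group means. The mdx points lie below all control points for Hk2/Hk1, Pfkm/Pfkl, Pfkm/Pfkp and Pgam2/Pgam1 and overlap them for the other 4; after quantile normalization Pfkm/Pfkl no longer passes, Ldha/Ldhb passes, and the signs of Aldoa/Aldoc and Eno3/Eno2 turn. In the pairs with Slc2a1, Pfkp, Aldoc and Pgam1 the second gene is at or below the noise level, so the size of the difference depends on the pseudocount.

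The falls of the bright muscle genes depended on the scaling of the arrays. Scaling to the hybridization controls raised the median change of all probe sets by 0.38, and centring on the fast sarcomere genes raised it by 0.50. Under the first, 31 of the genes were tested, 1 fell (Hk2) and 7 rose, or 22.6% beside 46.7% of all probe sets (Hk1, Pfkl, Pfkp, Pgk1, Pgam1, Gpd1 and Pgd). Under the second, 2 fell (Hk2 and Gyg), beside 1.34% of all probe sets, and 9 of 32 rose, the same 7 with Slc2a1 and Pgm2, or 28.1% beside 43.1% of all probe sets. This centring shifts every log2 value of an array alike, so it also raises mdx values that lie at or below the noise level. Slc2a1 and Pgm2, below the noise level on all arrays, went from 0.22 to 0.72 and from 0.17 to 0.67. Pfkp, also below the noise level on all arrays, went from 0.46 to 0.96. Pgd and Pgam1, below it on 5 and 4 control arrays, went from 0.68 to 1.18 and from 1.79 to 2.29. Nothing is read from the rises of these dim genes under this centring, and the 43.1% includes dim probe sets moved in the same way. Among all called probe sets the share that was higher went from 47.1% to 96.6% and 97.0%. The median of the muscle isoforms, taken relative to that of all probe sets, was -0.56 as deposited, -0.32 scaled to the hybridization controls and -0.20 after quantile normalization.

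Quantile normalization kept 10 of the 18 falls, those of Slc2a4, Hk2, Ldhb, Gys1, Gyg, Gbe1, Pgm1, Ugp2, Phka1 and Phkg1, and all 3 rises, beside 17.7% of all probe sets lower and 15.3% higher. The genes whose fall did not pass there were Pfkm, Aldoa, Tpi1, Pgam2, Eno3, Pkm, Ldha and Pygm. These 8 and Pgm1 are the 9 falling genes with a control mean over 15000. In 9 of those 9, control array 5 was the lowest control and mdx array 5 the highest mdx array, and in 7 of 9 the groups overlapped. Both held in 9 of all 18 falling genes, and the limit of 15000 was not planned in advance. Gys1, with a control mean of 13992, just under that limit, read 9534 on mdx array 5 and 10027 on mdx array 2. Without both arrays numbered 5, 17 of the 18 falls passed (Gbe1 did not), the 3 rises passed, and the median of the muscle isoforms was -0.72.

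**Figure D5:**
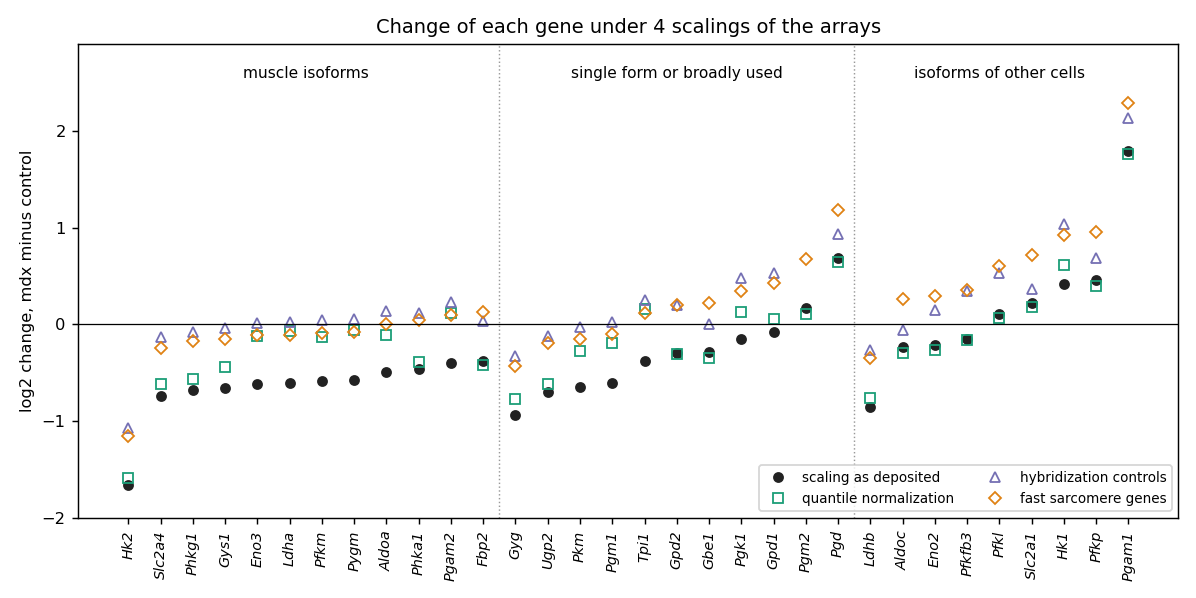
Log2 change of each tested gene, mdx minus control, under 4 scalings of the arrays (symbols), with genes grouped as muscle isoforms, single or broadly used forms, and isoforms of other cells. Hk2 stays below -1 and Hk1, Pfkp and Pgam1 stay above 0 under each. Pfkp lies below the noise level on every array, and Pgam1 was tested mainly through its mdx arrays. Most other muscle isoforms, negative as deposited, lie near 0 or turn positive when scaled to the hybridization controls or centred on the fast sarcomere genes.

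Groups did not overlap for 13 of the 32 genes, 10 with mdx below and 3 with mdx above, against 25.1% of all probe sets tested. The 10 were Slc2a4, Hk2, Pfkm, Ldhb, Gys1, Gyg, Gbe1, Pgm1, Ugp2 and Phkg1. These are counts by representative probe set; the mdx arrays also lay below the control arrays in the other probe sets of Aldoa and Pkm.

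Further genes of glucose and glycogen metabolism were read from a second list of 67 names, of which 43 had a probe set and 30 were tested. On the deposited scaling 10 fell, 3 rose and 17 did not pass, with a median log2 change of -0.13; the falls were 33.3% beside 17.8% of all probe sets and the rises 3 of 30 beside 15.8%. Scaled to the hybridization controls 31 were tested, 1 fell and 14 rose, or 45.2% beside 46.7% of all probe sets. The clearest rise was that of Stbd1, which binds glycogen and takes part in its delivery to lysosomes: 1369 ± 128 (SD, n = 5) in control and 3836 ± 496 (SD, n = 5) in mdx. Stbd1 rose by 1.27 ± 0.09 on the log2 scale (SE, limma adjusted p = 6.39e-07), and rose by 1.81 scaled to the hybridization controls. Pdk3, a pyruvate dehydrogenase kinase and 1 of the 3 rises, rose by 0.53 (limma adjusted p = 0.000962) but was below the noise level on all 10 arrays. It exceeded the filter on 0 control arrays and 5 mdx arrays. Pdk3 was thus tested only through its mdx arrays, and nothing is read from its rise.

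Gsk3a, a kinase that inhibits glycogen synthase, measured 11261 ± 398 (SD, n = 5) in control and 6565 ± 316 (SD, n = 5) in mdx. Gsk3a fell by 0.75 ± 0.06 on the log2 scale (SE, limma adjusted p = 1.9e-06), and was -0.13 scaled to the hybridization controls. Pdk4, the pyruvate dehydrogenase kinase induced by fasting, measured 13979 ± 3946 (SD, n = 5) in control and 5344 ± 679 (SD, n = 5) in mdx. Pdk4 fell by 1.29 ± 0.17 on the log2 scale (SE, limma adjusted p = 0.000111), and still passed at -0.68 and -0.79 scaled to the hybridization controls and centred on the fast sarcomere genes. Bpgm, which makes 2,3-bisphosphoglycerate in red cells, fell by 0.75 (limma adjusted p = 3.98e-05). The summed red cell markers read 17638 to 31590 in control and 9075 to 15402 in mdx, and their part was not tested. Of the 4 markers with a probe set, 3 (Alas2, Slc4a1 and Epb42) had means below the noise level in both groups. The sum thus rests almost wholly on Hba-a1, with means of 25470 in control and 12425 in mdx.

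Slc37a4, the transporter of glucose 6-phosphate into the endoplasmic reticulum, fell by 0.68 (limma adjusted p = 0.000543). Ppp1cb, a catalytic subunit of the phosphatase that activates glycogen synthase, fell by 0.66 (limma adjusted p = 0.0039). Pdhb, a subunit of pyruvate dehydrogenase, fell by 0.59 (limma adjusted p = 0.00493), or was 0.03 scaled to the hybridization controls. Like Gsk3a and Bpgm, Slc37a4 and Ppp1cb kept a negative sign without passing under that scaling.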

How the data were processed

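The deposited table held 1 intensity per probe set and array, as the authors gave it; the software, background correction and scaling are not given in the sources used here. In it 27659 values were below 0. Zero replaced these before conversion to log2(intensity + 372.4), with 372.4 the root mean square of the values below 0. Leaving out 66 control probe sets, a probe set was tested if 5 or more of the 10 arrays read above 134.2, the 40th percentile of the table. The platform annotation named 1 gene for 10833 probe sets, several for 396 and none for 1193; 0 symbols changed on matching to current names. The brightest tested probe set represented a gene. A limma fit (version 3.58.1, R 4.3.3; lmFit and trended eBayes, no covariates) set 5 mdx against 5 control arrays, with Benjamini-Hochberg adjustment over 7612 probe sets, and called at an adjusted p under 0.05. The script was tested on simulated data. The number of arrays limits the precision.

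Every gene of the group with a probe set is named, with values per array for called genes and both isoforms of a pair; of the further pathway genes, the 8 with the smallest p, and of marker lists the brightest; Tpm1, Tnni1, Casq2 and markers below the noise level were named after their values were seen. The genes and lists were chosen with earlier results of these data known. Alternatives were other pseudocounts, filters and scalings, the mean over probe sets, a replicate block and each array left out; the median-based noise level (157) and leaving out both arrays numbered 5 were chosen after seeing the data.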

Additional observations from a re-analysis of the deposited data

Results flagged for a closer look

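Among the 64 sets of 5 arrays examined (each tested gene in each group), 3 held an array set apart from the other 4 by more than Dixon's 95% limit; chance gives about 1 in 20 such sets. Gyg, glycogenin, read 6769.7 on mdx array 4, the nearest other mdx array reading 5155.8, a gap of 0.772 of the range; it remained below every control array. Pgm1, a phosphoglucomutase, read 24120 on mdx array 5 against 20687 on the nearest, a gap of 0.726, and array 5 was also the highest mdx array of the other 8 bright falling genes. Pgm2 read 59.141 on mdx array 4 against 165.47, a gap of 0.792, all below the noise level.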

How the results depend on the processing

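Over the 22 alternatives the calls of Hk2, Hk1, Pfkp and Pgam1 did not change. Pfkp was below the noise level on every array and Pgam1 was tested mainly through its mdx arrays, so their unchanged calls are not read as support. Counts of falling genes, 18 in the main setting, were 16 to 18 with an array left out, and counts of rising genes, 3, were 3 to 4. Falling genes numbered 10 after quantile normalization, 1 scaled to the hybridization controls and 2 centred on the fast sarcomere genes; of muscle isoforms 5, 1 and 1 fell. Under the last 2 scalings 7 and 9 genes rose, beside 46.7% and 43.1% of all probe sets, and 0 and 0 isoforms of other cells fell. Centring on the fast sarcomere genes gave 5 rises among the 9 isoforms of other cells tested. Slc2a1 and Pfkp, below the noise level on every array, were among these. Of the further pathway genes 14 of 31 and 9 of 30 rose, beside the same 46.7% and 43.1%. In that list 1 and 1 fell, beside 1.66% and 1.34% of all probe sets. Signal over background limits Slc2a1, Pfkp, Aldoc and Pgm2, all below the noise level on every array, and Pgam1 in control. Without a filter 14 of the 18 falls passed. The cause of these differences was not tested.

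After quantile normalization the sign turned for Tpi1 (0.16), Pgk1 (0.13), Pgam2 (0.12) and Gpd1 (0.053), and among pairs for Aldoa/Aldoc (0.19) and Eno3/Eno2 (0.14); Pfkm/Pfkl (-0.19) and Slc2a4/Slc2a1 (-0.79) lost their calls and Ldha/Ldhb (0.70) gained one. Scaled to the hybridization controls it turned for Pfkm (0.043), Pfkfb3 (0.34), Fbp2 (0.040), Aldoa (0.14), Tpi1 (0.25), Pgk1 (0.48), Pgam2 (0.23), Eno3 (0.019), Eno2 (0.15), Ldha (0.026), Gbe1 (0.0088), Pgm1 (0.029), Pygm (0.057), Phka1 (0.12), Gpd1 (0.53), Gpd2 (0.20) and the pair Aldoa/Aldoc (0.20), and Slc2a4/Slc2a1 lost its call at -0.51. Centred on the fast sarcomere genes it turned for Pfkfb3 (0.35), Fbp2 (0.12), Aldoa (0.0085), Aldoc (0.26), Tpi1 (0.12), Pgk1 (0.35), Pgam2 (0.10), Eno2 (0.29), Gbe1 (0.22), Phka1 (0.041), Gpd1 (0.42) and Gpd2 (0.20). Slc2a4/Slc2a1 also lost its call with smaller pseudocounts, 0.5 times the noise level (-1.14) and the median-based noise level (-1.19), and ranged from -1.12 to -0.86 with an array left out; Eno3/Eno2 ranged from -0.54 to -0.34. Without both arrays numbered 5, Pfkl was -0.028 and Eno3/Eno2 -0.65.

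No pairing of the arrays by the replicate numbers of the labels was seen in the values. Deviations of same-numbered arrays correlated at -0.16 to 0.04, beside -0.16 to 0.17 for arrays of different number. Among control arrays 1 of 5 correlated best with its own number. With so few arrays these correlations cannot exclude a pairing. With the replicate block 2238 probe sets were called instead of 2554, 14 of the 18 falls passed and the 3 rises passed. The block left the pair differences as they were (Hk2/Hk1 -2.08, Pgam2/Pgam1 -2.19, Pfkm/Pfkp -1.04, Pfkm/Pfkl -0.69, Slc2a4/Slc2a1 -0.96), but its sign-flip exact permutation test cannot go below 0.0625, so no pair could pass.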
